A study of Mus musculus with 6 samples.

Results

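The collagen gene family was followed in whole mouse brain after deletion of Pofut1, the enzyme that places O-fucose on EGF-like repeats and that Notch receptors need to signal. Its members were all probe sets whose platform annotation gave a single gene symbol made of Col, digits, a and digits. This rule took 82 of 45037 probe sets, for 42 of 18193 genes: 11 fibrillar, 8 basement membrane and 23 other collagens. Where a gene had several probe sets, the one with the highest mean over all arrays stood for it, and the others were used to see whether they differed in the same direction. A value is the log2 of the deposited intensity unless stated otherwise.

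There were 3 groups of 2 arrays, each array from total brain RNA of C57/Bl6 mice aged 2 months, and no group received a treatment. Brains of the NestinCre control had wild type Pofut1 and a Cre transgene driven by Nestin, a gene of neural progenitors, whose descendants keep the recombined allele. Brains of the Flox control were Pofut1 flox/flox and without Cre. Knockout brains were Pofut1 flox/flox with Nestin-driven Cre. Cre was thus present in the knockout and the NestinCre control, and floxed alleles in the knockout and the Flox control. No label says that arrays of a group came from separate animals. By Xist and Eif2s3y, the NestinCre control and the knockout each held a female and a male array, which were therefore different animals. Both Flox control arrays were female, so for them this is open. The p-values cover the spread between arrays only, and part of it could be technical. Nestin-Cre acts on the neural lineage, and whether it also acted in cells of vessels and meninges was not measured. Those cells, the main makers of collagen in brain, were present in the same tissue. In whole tissue, fewer cells of a type and less RNA per cell cannot be told apart.

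Collagens are secreted proteins whose chains wind into a helix built on repeats of glycine. Fibrillar collagens such as types I and III form the ropes of connective tissue and in brain lie mainly in the meninges and around larger vessels. Type IV collagen forms the sheet of every basement membrane, including the one around brain capillaries that endothelial cells, pericytes and astrocyte endfeet share. The other collagens decorate fibrils, form beaded filaments or short networks, or span the cell membrane, and several of them are made by neurons.

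Pofut1 was lower on both knockout arrays, at 9.25 and 9.44 against 9.77 to 9.95 on the 4 control arrays (log2 difference -0.50, SE 0.08, limma adjusted p = 0.211). Its other probe sets gave -0.18 and -0.32, and no source used here places these probes inside or outside the deleted stretch of the gene. Array medians ran from 7.32 to 7.36, with pairwise correlations of 0.985 to 0.995. The highest joined NestinCre control replicate 2 with knockout replicate 1, while the 2 knockout arrays stood at 0.993. Neuronal markers were bright and even, with Snap25, Syt1, Rbfox3, Nefl and Stmn2 summing to intensities of 27361 to 28826 on the 6 arrays. Xist was low and Eif2s3y, a gene of the Y chromosome, high on 2 male arrays, replicate 2 of the NestinCre control and replicate 1 of the knockout. In the Flox control, replicate 1 gave the higher value of the pair for 34 of 42 collagen genes (81.0%, against 55.8% of all genes). In the other groups this held for 23 and 22 of 42. The 12 fibroblast markers summed to 12572 in Flox control replicate 1 and 11774 in replicate 2, and the 6 pituitary markers to 1002 and 2235. The part of either in the gap was not tested.

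**Figure D1:**
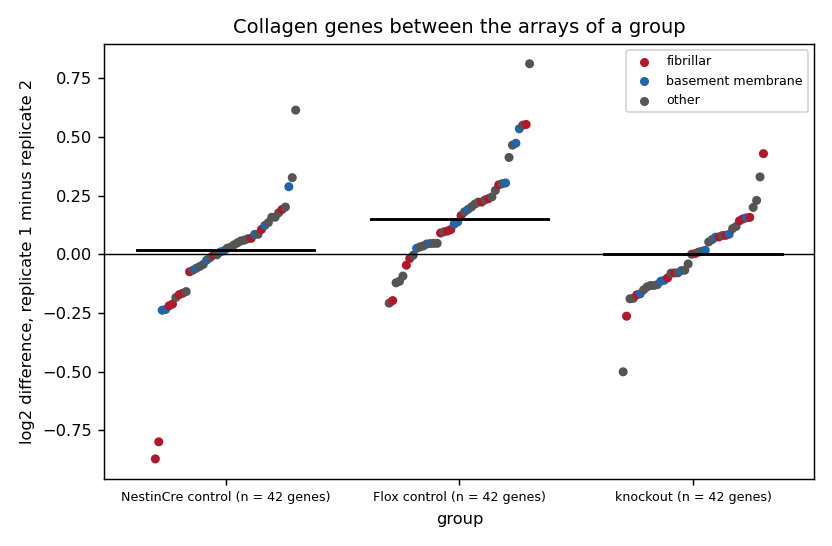
Log2 difference between replicate 1 and replicate 2 of each group for the 42 collagen genes, sorted within the group and coloured by class, with the median as a black line. The median was 0.15 in the Flox control, against 0.020 in the NestinCre control and 0.0014 in the knockout, so most points of the Flox control lie above 0.

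Promoter sequences were drawn from RefSeq (GRCm38.p6), where 33 of the 42 genes had at least 1 window of 300 bases, from 250 before to 50 after a transcript start. Windows are printed for Col4a1 and Col4a2, a head-to-head pair of neighbouring genes, for Col6a1, the gene furthest above the controls among those at an unadjusted p under 0.05, and for Col8a2, the furthest below. Each is given 5′ to 3′ on the gene's own strand, and capitals mark every match, on either strand, to the CCAAT box (CCAAT) or the GC box (GGGCGG).
Col4a1 (chr8:11312777-11313076, minus strand): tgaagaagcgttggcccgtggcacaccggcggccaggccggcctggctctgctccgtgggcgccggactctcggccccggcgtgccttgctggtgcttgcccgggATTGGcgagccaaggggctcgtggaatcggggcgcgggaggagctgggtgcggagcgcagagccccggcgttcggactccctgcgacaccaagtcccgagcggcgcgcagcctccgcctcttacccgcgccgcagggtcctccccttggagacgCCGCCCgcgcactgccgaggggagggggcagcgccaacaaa
Col4a2 (chr8:11312555-11312854, plus strand): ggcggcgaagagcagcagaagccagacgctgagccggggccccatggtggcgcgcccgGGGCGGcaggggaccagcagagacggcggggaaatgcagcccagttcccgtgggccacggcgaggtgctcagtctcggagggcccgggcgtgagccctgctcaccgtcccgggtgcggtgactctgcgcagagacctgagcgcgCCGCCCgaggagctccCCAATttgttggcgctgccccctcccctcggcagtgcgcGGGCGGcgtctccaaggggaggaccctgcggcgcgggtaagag
Col6a1 (chr10:76725995-76726294, minus strand): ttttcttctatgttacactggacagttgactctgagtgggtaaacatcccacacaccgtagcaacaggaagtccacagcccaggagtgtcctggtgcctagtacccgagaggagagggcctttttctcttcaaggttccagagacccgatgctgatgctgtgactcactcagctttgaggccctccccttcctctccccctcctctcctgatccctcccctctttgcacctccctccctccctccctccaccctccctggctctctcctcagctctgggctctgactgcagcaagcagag
Col8a2 (chr4:126286544-126286843, plus strand): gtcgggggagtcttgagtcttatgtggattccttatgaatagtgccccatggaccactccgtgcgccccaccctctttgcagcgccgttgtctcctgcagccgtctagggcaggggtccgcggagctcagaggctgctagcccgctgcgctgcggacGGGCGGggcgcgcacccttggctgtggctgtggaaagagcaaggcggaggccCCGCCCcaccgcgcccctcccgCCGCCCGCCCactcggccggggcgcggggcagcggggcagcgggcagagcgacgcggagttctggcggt

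The starts of Col4a1 and Col4a2 lay 21 bases apart on opposite strands, so their windows shared 78 bases. That of Col4a2 was at 11312805 and that of Col4a1 at 11312826, so the 5′ ends of the transcripts overlapped. The windows held 1 and 3 GC boxes, and 1 CCAAT box each. The GC box of Col4a1 and the last one of Col4a2 were the same bases, read on opposite strands. Col8a2 held 4 GC boxes, 2 of them overlapping, and Col6a1 held none. The GC box occurred in 35.7% of all windows, and in 22 of the 36 collagen windows. CCAAT was found in 37.4% of all windows and 13 of the collagen ones. None of the 4 printed windows held TATAAA, the TATA box core, or TGGGAA, the core of the site of RBPJ, the DNA-binding partner of Notch, searched on both strands. Those letters occurred in 13.6% and 25.6% of all windows, and in 5 and 10 of the collagen windows. A match is a description of these letters and not a measured binding site.

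Knockout brain was first compared with both controls, to see which collagens differed when Cre and floxed alleles came together. No collagen probe set passed adjustment over all probe sets, where 7 of 45037 (0.0155%) did, and the smallest limma adjusted p of a collagen gene was 0.282. At an unadjusted p under 0.05, 7 of 42 collagen genes differed, against 10.6% of all genes. Of these 6 were higher in knockout (4.16% of all genes were) and 1 was lower (6.45% of all genes). For 10 collagen genes the knockout pair stood clear of the 4 controls, against 18.2% of all genes. It was above for 6 (7.23% of all genes) and below for 4 (10.9%), the latter being Col4a3, Col6a4, Col8a2 and Col17a1. The collagen median was 0.06, with 27 of 42 above 0, while the median of all genes was -0.02, with 40.7% above 0.

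**Figure D2:**
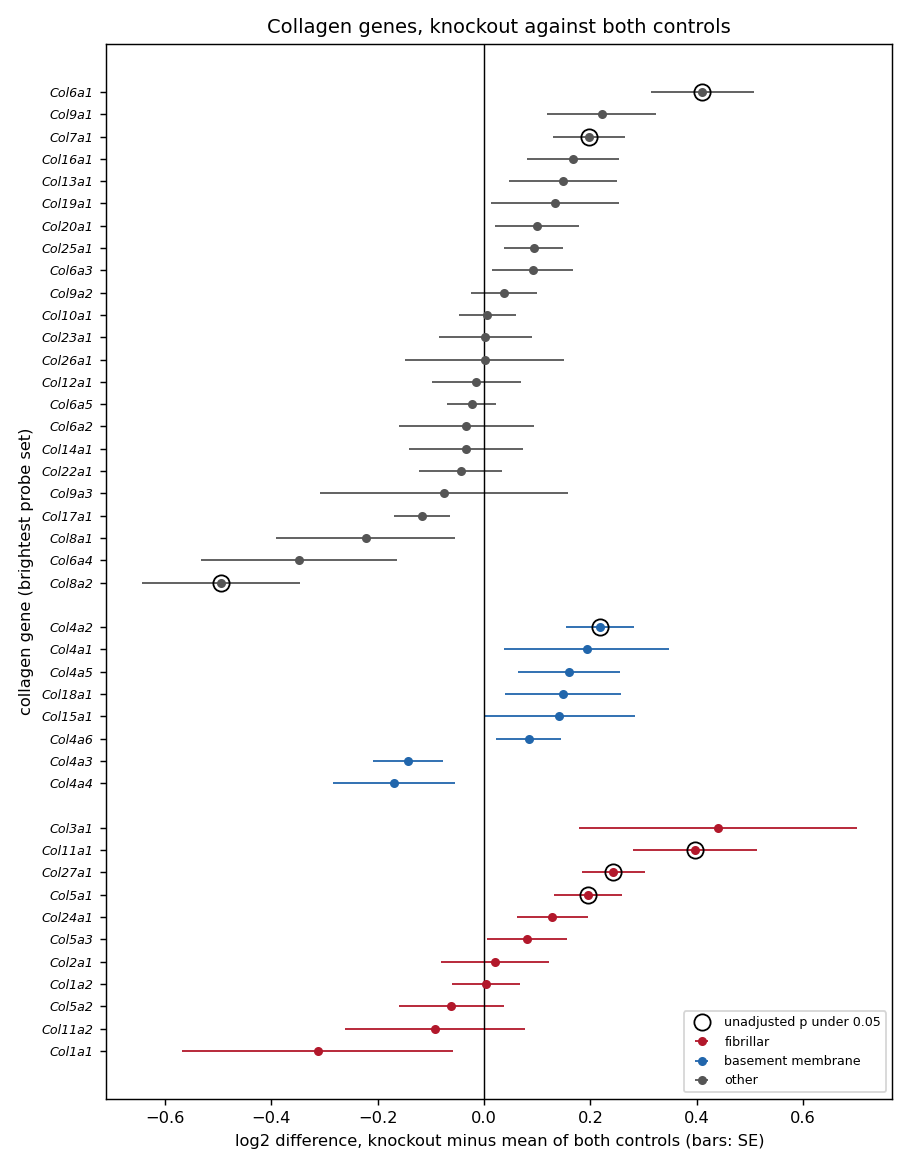
Log2 difference of each of the 42 collagen genes, knockout minus the mean of both controls, with its SE as a bar, sorted within the 3 classes. Black circles mark the 7 genes at an unadjusted p under 0.05, with Col6a1 at 0.41 the highest of these and Col8a2 at -0.49 the lowest. The highest value without a circle is Col3a1, whose bar is wide.

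Among fibrillar collagens, 8 of 11 lay above 0 with a median of 0.08. The chains of types V and XI, which regulate fibril thickness, and of type XXVII, a large chain best known from cartilage, gave the 3 members at an unadjusted p under 0.05. All were higher in knockout, where 4.16% of all genes were higher and 10.6% passed in either direction.

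Col27a1 gave 7.63 and 7.70 in NestinCre control, 7.83 and 7.73 in Flox control, and 8.00 and 7.93 in knockout. Both knockout arrays lay above the 4 controls, and the difference was 0.24 (SE 0.06, 95% interval 0.09 to 0.40, limma adjusted p = 0.297). Its other probe set gave 7.26, 7.37, 7.38 and 7.34 in the controls and 7.74 and 7.80 in knockout. There too the groups did not overlap, and its difference of 0.43 (SE 0.06) had the smallest limma adjusted p of all collagen probe sets, 0.172.

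Col11a1, which encodes a chain of type XI collagen, gave 7.50 and 7.72 in NestinCre control, 7.36 and 7.06 in Flox control, and 7.88 and 7.74 in knockout. The knockout arrays were the highest, with a difference of 0.40 (SE 0.12, limma adjusted p = 0.351), though knockout replicate 2 exceeded NestinCre control replicate 2 only narrowly. The gene's other probe set differed by -0.03 (SE 0.14), so the 2 probe sets disagreed. With the mean of both, Col11a1 stood at 0.18.

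Col5a1, the main chain of type V collagen, gave 8.06 and 7.99 in NestinCre control, 7.85 and 7.90 in Flox control, and 8.22 and 8.07 in knockout. Knockout replicate 2 and NestinCre control replicate 1 were nearly level. The difference was 0.20 (SE 0.06, limma adjusted p = 0.388), and the gene's 3 probe sets all lay above 0, from 0.08 to 0.20. With 1 array left out it ran from 0.12, without knockout replicate 1, to 0.27. In several of those fits it no longer reached an unadjusted p under 0.05.

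The 2 chains of type I collagen, the main fibril of meninges and vessel walls, did not differ in a shared direction. Col1a1 gave 9.64 and 10.44 in NestinCre control, 10.05 and 9.95 in Flox control, and 9.92 and 9.49 in knockout. Its NestinCre arrays spanned all others except knockout replicate 2, and the difference was -0.31 (SE 0.26) with a 95% interval from -0.97 to 0.35. Col1a2 was even on its brightest probe set. It gave 9.84 and 10.00 in NestinCre control, 9.81 and 9.83 in Flox control, and 9.87 on both knockout arrays. On this probe set its 95% interval ran from -0.16 to 0.17. The next brightest gave 7.78 and 8.37 in NestinCre control and 8.07 to 8.19 in the other groups, a difference of 0.07 (SE 0.17).

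Col3a1, the chain of type III collagen, was named after its values were seen, because it had the highest difference among the 42 genes. It gave 7.67 in NestinCre control replicate 1 and 8.51 to 8.93 on the other 5 arrays. The difference from both controls was 0.44 (SE 0.26), with an interval from -0.23 to 1.11. Col5a2, Col5a3, Col2a1, Col11a2 and Col24a1 lay between -0.09 and 0.13, and in none of them did the knockout arrays stand clear of the 4 controls.

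**Figure D3:**
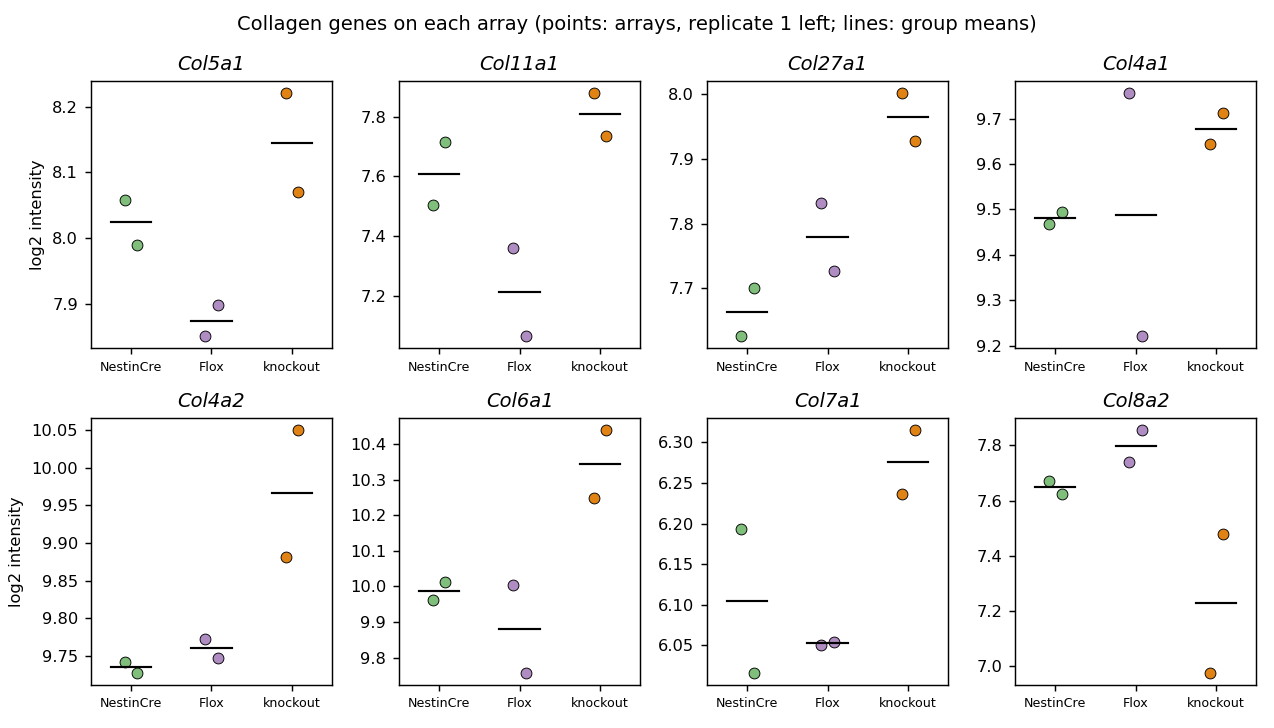
Log2 intensity on each array for the 7 collagen genes at an unadjusted p under 0.05 in knockout against both controls, and for Col4a1. Points are arrays and lines are group means, and each panel has its own axis that does not start at 0. The Flox control arrays of Col4a1, 9.76 and 9.22, span all other arrays of that gene, whereas the 4 control arrays of Col4a2 lie within 9.73 to 9.77.

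Basement membrane collagens had a median of 0.14, with 6 of 8 above 0. The median was 0.20 against NestinCre control alone and 0.05 against Flox control alone. Against both controls, 1 of the 8 reached an unadjusted p under 0.05, a share near the 10.6% of all genes. Col4a2, which pairs with Col4a1 in the type IV network of brain vessels, gave 9.74 and 9.73 in NestinCre control, 9.77 and 9.75 in Flox control, and 9.88 and 10.05 in knockout. The 4 controls were tightly grouped and both knockout arrays lay above them. Its difference was 0.22 (SE 0.06, 95% interval 0.05 to 0.38, limma adjusted p = 0.350). With 1 array left out it ran from 0.13, without knockout replicate 2, to 0.30. In several of those fits it did not reach an unadjusted p under 0.05.

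Col4a1 gave 9.47 and 9.49 in NestinCre control, 9.76 and 9.22 in Flox control, and 9.64 and 9.71 in knockout. The knockout arrays lay above both NestinCre arrays and inside the range of the Flox arrays. Its difference of 0.19 (SE 0.15) was close to that of Col4a2, with a wider interval of -0.21 to 0.59, and the second Col4a1 probe set gave 0.18 (SE 0.17). The pair whose promoter windows overlap therefore had similar differences, with different spreads among the controls.

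The multiplexins Col15a1 and Col18a1, which link basement membranes to the matrix around them, differed by 0.14 (SE 0.14) and 0.15 (SE 0.11), with knockout inside the range of the controls or overlapping it. Col4a5 and Col4a6, another head-to-head pair on the X chromosome with starts 1343 bases apart, gave 0.16 (SE 0.10) and 0.08 (SE 0.06). Col4a3 and Col4a4, a further pair, lay below 0 at -0.14 (SE 0.07) and -0.17 (SE 0.12). Both probe sets of Col4a3 were lower in knockout than on every control array, but both were dim, with no array above 6.20, where the median over all probe sets was 7.34. The other probe sets of Col4a4 gave 0.11 and 0.0039, so its probe sets disagreed in direction.

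The 23 other collagens had a median of 0.0027, with 13 above 0 and 10 below. Col6a1, a chain of the beaded filaments of type VI collagen, gave 9.96 and 10.01 in NestinCre control, 10.00 and 9.76 in Flox control, and 10.25 and 10.44 in knockout. Both knockout arrays were above every control, by 1.33-fold in the mean (log2 difference 0.41, SE 0.10, 95% interval 0.16 to 0.66, limma adjusted p = 0.282). Without knockout replicate 2 the difference was 0.32, and at that setting alone among the left-out arrays it missed an unadjusted p under 0.05.

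The partner chains of Col6a1 did not share that value. Col6a2, which lies near Col6a1 on chromosome 10 and joins the same filament, gave 8.14 and 8.13 in NestinCre control, 8.50 and 8.09 in Flox control, and 8.12 and 8.25 in knockout. These groups overlapped, and the difference was -0.03 (SE 0.13) on its brighter probe set and -0.05 (SE 0.11) on the other. Col6a3 gave 0.09 (SE 0.08), and the dim probe sets of Col6a4 and Col6a5 gave -0.35 (SE 0.18) and -0.02 (SE 0.05). Whether Col6a1 differed from Col6a2 in its response was not tested.

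Col8a2, a short-chain collagen best known from the membrane beneath the corneal endothelium, was the one collagen gene lower in knockout at an unadjusted p under 0.05. It gave 7.67 and 7.62 in NestinCre control, 7.74 and 7.86 in Flox control, and 6.98 and 7.48 in knockout. Both knockout arrays were below all controls, but they differed from each other by more than the arrays of either control did. The difference was -0.49 (SE 0.15, 95% interval -0.88 to -0.11, limma adjusted p = 0.363). Without knockout replicate 1, it was -0.24, and without replicate 2, -0.75. Several of the fits that left out an array missed an unadjusted p under 0.05 for this gene. Col8a1, the relative of Col8a2 made by vascular smooth muscle, stood at -0.22 (SE 0.17) on its brightest probe set. Its other probe sets stood at -0.02 and 0.05.

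Col7a1, the anchoring fibril collagen of skin, was dim, at 6.19 and 6.02 in NestinCre control, 6.05 on both Flox arrays, and 6.24 and 6.32 in knockout. Knockout was above the controls by 0.20 (SE 0.07, limma adjusted p = 0.407). Without Flox control replicate 1 or 2 it still stood at 0.20, but it kept an unadjusted p under 0.05 in only 1 of the 6 fits that left out an array.

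Among transmembrane collagens, Col25a1, which neurons make and which binds amyloid, gave 11.43 and 11.48 in NestinCre control, 11.41 and 11.32 in Flox control, and 11.47 and 11.54 in knockout. The groups overlapped, and the interval of -0.05 to 0.24 around 0.09 bounds a difference on this probe set. Its dim probe set gave -0.04 (SE 0.09). Col13a1, Col17a1 and Col23a1 lay between -0.12 and 0.15.

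None of the 9 fibril-associated collagens reached an unadjusted p under 0.05 on its brightest probe set, and they ranged from -0.08 for Col9a3 to 0.22 for Col9a1. For Col9a1, a cartilage chain, both probe sets lay above 0, with its second probe set at 0.17 (SE 0.07). Col19a1, made by a subset of interneurons, was named after its values were seen because its probe sets differed in size. Its brightest gave 0.13 (SE 0.12), whereas its least bright gave 7.96 and 8.41 in NestinCre control, 7.35 and 7.47 in Flox control, and 8.60 and 8.31 in knockout. That probe set was low on both Flox arrays. It stood at 0.66 (SE 0.16) for knockout against both controls and at 0.77 (SE 0.18) for NestinCre minus Flox control. The rest of the other class, Col9a2, Col12a1, Col14a1, Col16a1, Col20a1, Col22a1, Col10a1 and Col26a1, lay between -0.04 and 0.17.

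**Figure D4:**
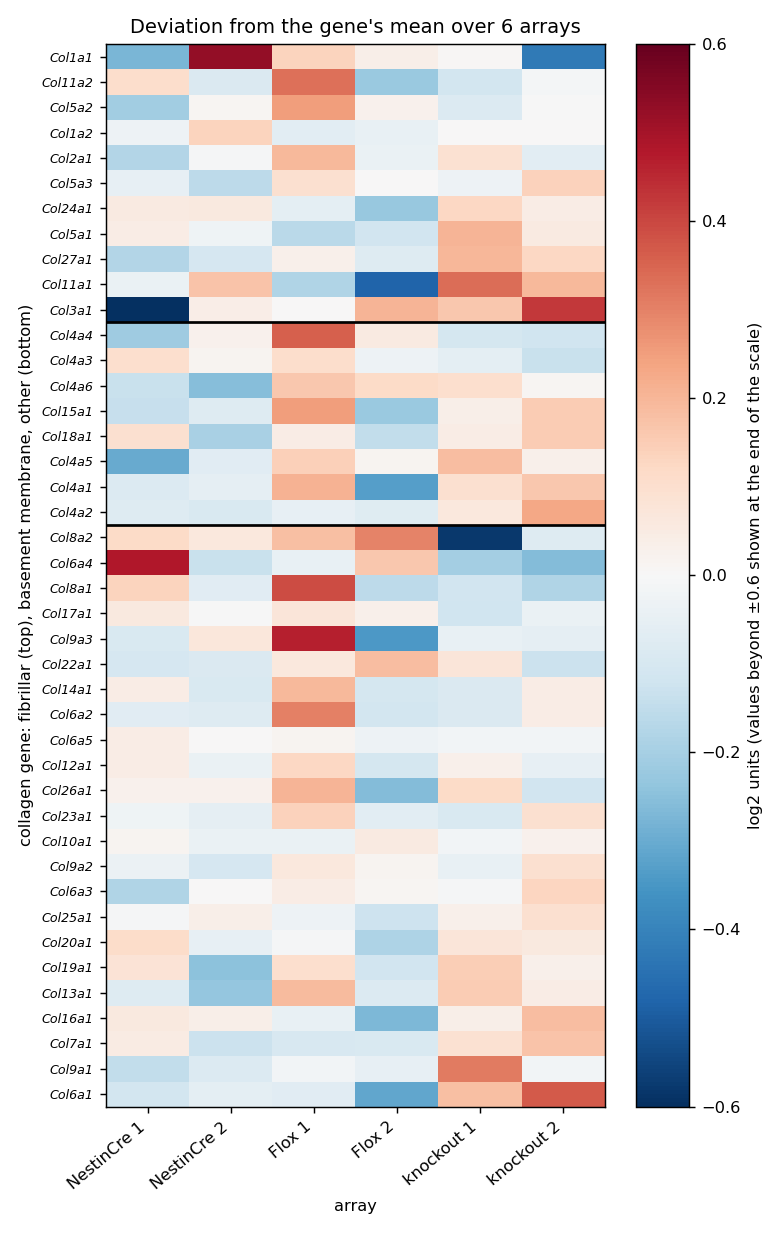
Deviation of each collagen gene (rows) from its own mean over the 6 arrays (columns), in log2 units, with red above and blue below the mean and black lines between the fibrillar, basement membrane and other collagens. Flox control replicate 1 holds the highest value of 17 of the 42 genes and Flox control replicate 2 the lowest of 15, so the Flox columns have opposite colours in many rows.

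Each control was then set against the knockout alone, since the NestinCre control shares its Cre and the Flox control its floxed alleles. Both comparisons use the same knockout arrays. Against NestinCre control, 5 of 42 collagen genes reached an unadjusted p under 0.05 (6.12% of all genes did), all 5 higher in knockout (3.23% of all genes). Against Flox control there were 9 (14.8% of all genes), 8 higher (4.75%) and 1 lower (10%). After adjustment over all probe sets no collagen remained in either comparison, where 0 of 45037 probe sets passed against NestinCre control and 2 (0.00444%) against Flox control. Over the 42 genes the median difference from NestinCre control was 0.06, beside -0.0019 for all genes, and that from Flox control was 0.02, beside -0.04. Without knockout replicate 1 the count against NestinCre control was 3 (7.83% of all probe sets at that setting), and without knockout replicate 2 the count against Flox control was 5 (18.8%).

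Named in both were Col6a1, Col27a1 and Col4a2. Col6a1 stood 0.36 (SE 0.11) above NestinCre control and 0.46 (SE 0.11) above Flox control. For Col27a1 the values were 0.30 (SE 0.07) and 0.18 (SE 0.07), and for Col4a2 0.23 (SE 0.07) and 0.21 (SE 0.07). In all 3 genes both knockout arrays lay above the 4 controls, but they did not hold alike under other settings. Against Flox control Col6a1 kept an unadjusted p under 0.05 in 16 of 16 alternatives, Col4a2 in 5 of 16 and Col27a1 in 3 of 16. Leaving out 1 array took Col27a1 to between 0.13 and 0.24 there and Col4a2 to between 0.12 and 0.29, and each kept that level in 1 of 6 such fits. Against NestinCre control the counts were 13 of 16 for Col6a1, 14 of 16 for Col27a1 and 10 of 16 for Col4a2. The dimmer probe set of Col4a5 gave 0.13 (SE 0.09) against NestinCre control and 0.25 (SE 0.09) against Flox control. That of Col4a6 gave -0.03 (SE 0.05) and -0.07 (SE 0.05). Their brighter ones were higher than NestinCre control at 0.29 (SE 0.11) and 0.25 (SE 0.07), but lay at 0.03 and -0.08 against Flox control. Col4a5 kept that level in 7 of 16 alternatives, and went down to 0.17 with 1 array left out. Against Flox control Col11a1 stood at 0.60 (SE 0.13) and Col8a2 at -0.57 (SE 0.17), beside 0.20 (SE 0.13) and -0.42 (SE 0.17) against NestinCre control. The other 4 past that level against Flox control were Col5a1, Col7a1, Col24a1 and Col16a1, at 0.22 to 0.27. Of these Col24a1 kept it in 4 of 15 alternatives and Col16a1 in 4 of 16, and without Flox control replicate 2 they stood at 0.15 and 0.16 and missed it. Col5a1 kept it in 11 of 16 and Col7a1 in 8 of 15. The limma adjusted p of collagen genes was 0.601 or above against NestinCre control and 0.177 or above against Flox control.

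The controls were compared with each other to show how far collagens differed with Pofut1 not deleted. At an unadjusted p under 0.05, 3 of 42 genes differed (9.15% of all genes), 2 higher in NestinCre control (2.08%) and 1 lower (7.07%). None passed adjustment, as for 0 of all 45037 probe sets, and the smallest limma adjusted p of a collagen gene was 0.378. Col4a6 gave 6.21 and 6.09 in NestinCre control and 6.50 and 6.46 in Flox control, with knockout close to the latter at 6.44 and 6.35. It was dim, and NestinCre minus Flox control was -0.33 (SE 0.07) on its brighter probe set and -0.05 (SE 0.05) on the other. Col11a1 was higher in NestinCre control by 0.40 (SE 0.13), as large as its difference between knockout and both controls. Col24a1, a fibrillar chain, was higher by 0.20 (SE 0.08), at 7.08 on both NestinCre arrays and 6.96 and 6.79 on the Flox arrays, with knockout at 7.15 and 7.07. It kept an unadjusted p under 0.05 in 4 of 15 alternatives and stood at 0.12 without Flox control replicate 2, while Col4a6 kept it in 15 of 15 and Col11a1 in 11 of 16. The median of the collagens was -0.06, and 27 of 42 lay below 0, while the median of all genes was -0.04 and 35.8% of them lay above 0.

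This comparison turned on which Flox control array was used. Shares at other settings are over all probe sets, while collagens are counted as genes, so the 2 are not alike. At an unadjusted p under 0.05 with all 6 arrays, 2340 probe sets were higher in NestinCre control and 2353 lower. Of all genes, 379 were higher and 1286 lower. Without Flox control replicate 1, 6 collagen genes reached an unadjusted p under 0.05, 5 of them higher in NestinCre control. Over all probe sets 8.29% did, 3.83% higher and 4.46% lower. Without Flox control replicate 2, 9 collagen genes did, and all 9 were lower. Over all probe sets 10.3% did, 5.07% higher and 5.26% lower. Knockout against both controls gave 9 genes (8 higher, 1 lower) without Flox control replicate 1, where 9.33% of all probe sets passed, and 5 genes (3 higher, 2 lower) without replicate 2, where 12.1% did. Col6a1, Col27a1 and Col11a1 reached that level at both settings. Without knockout replicate 1 the count against both controls was 3 (8.14% of all probe sets). With sex as a covariate, it was 7, of which 5 were higher, and Col6a1 stood at 0.43, Col4a2 at 0.24 and Col8a2 at -0.43.

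Genes that act on collagens were read from lists on modification, processing, turnover, receptors, matrix partners and TGF-beta signalling. None of their members passed adjustment in knockout against both controls. Their counts at an unadjusted p under 0.05 are to be read against 10.6% of all genes, 4.16% higher and 6.45% lower. Of 21 measured genes for collagen modification and folding, 1 reached that level, a smaller share than among all genes. It was Colgalt2, which adds galactose to hydroxylysine, at 7.54 to 7.62 in the controls and 7.18 and 7.31 in knockout (difference -0.34, SE 0.06). Knockout arrays stood clear of the controls for 4 of the 21, a share near the 18.2% of all genes. Besides Colgalt2 these were the collagen chaperone Serpinh1 at -0.40 (SE 0.21), the prolyl hydroxylation cofactor Crtap at -0.21 (SE 0.11) and the isomerase Ppib at 0.11 (SE 0.06).

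Of 11 processing and cross-linking genes, the cross-linking enzyme Tgm2 was higher at 0.33 (SE 0.08) and the lysyl oxidase relative Loxl3 lower at -0.22 (SE 0.07), with Lox at 0.35 (SE 0.14) and Loxl1 at -0.31 (SE 0.13). Of 13 turnover genes, Mmp2, the gelatinase that cleaves type IV collagen, gave 6.93 to 7.11 in the controls and 7.38 and 7.67 in knockout, a difference of 0.50 (SE 0.09). Mrc2, which takes up collagen for degradation, gave -0.37 (SE 0.11). Mmp8 stood at 0.09 (SE 0.05) and Fap at -0.16 (SE 0.10). Of 10 collagen receptors, Itgb1, the beta subunit of collagen-binding integrins, was higher at 0.22 (SE 0.08), beside Lair1 at 0.41 (SE 0.19), Ddr2 at 0.15 (SE 0.08) and Adgrg1, a receptor for type III collagen, at -0.17 (SE 0.11).

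Of 18 partners in the basement membrane, 3 were higher and 1 lower at an unadjusted p under 0.05, beside 4.16% and 6.45% of all genes, with a median of 0.02. The higher ones were Pxdn, the peroxidase that cross-links type IV collagen (0.22, SE 0.05), the laminin chain Lamc1 (0.21, SE 0.08) and the heparan sulphate proteoglycan Agrn (0.15, SE 0.06). Sparc, which binds collagens in the matrix, was lower (-0.24, SE 0.07). Of 15 fibril partners 2 were higher, the proteoglycan Dcn (0.44, SE 0.11) and Postn (0.44, SE 0.13), and 2 were lower, Lum (-0.30, SE 0.05) and Tnxb (-0.19, SE 0.07). TGF-beta signalling, a known inducer of collagen genes, had 1 of 17 members higher, Tgfbr3 (0.23, SE 0.08), and 2 lower, Smad2 (-0.21, SE 0.05) and Ltbp1 (-0.16, SE 0.06). Ccn2, a target of that pathway, stood at 0.24 (SE 0.11).

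Markers of the cells that make collagen differed between lists. All 7 smooth muscle markers lay below 0 with a median of -0.49. Both knockout arrays were below all controls for each, as for 10.9% of all genes. At an unadjusted p under 0.05 in limma 6 were lower, beside 6.45% of all genes. Among them were Tpm2 at -0.54 (SE 0.06), Myh11 at -0.86 (SE 0.12), Tagln at -0.44 (SE 0.08) and Myl9 at -0.49 (SE 0.09). Of 9 pericyte markers 8 lay below 0, with a median of -0.20, and 5 were lower at an unadjusted p under 0.05 in limma. The knockout median was -0.06 against NestinCre control alone and -0.38 against Flox control alone. Between the controls, all 9 were lower in NestinCre control, with a median of -0.26. In knockout against both controls, Rgs5 fell by 2.16 on the log2 scale (SE 0.08, limma adjusted p = 0.0263), the one listed gene past adjustment. Higd1b stood at -0.96, Pdgfrb at -0.74 and Ndufa4l2 at -0.59. The summed intensity of the pericyte list was 5441 to 6395 on the controls and 3400 and 3519 in knockout, and that of smooth muscle 2900 to 3172 against 2154 and 1832. Type IV collagen is made by both pericytes and endothelial cells. On the same arrays Col4a1 stood at 0.19 (SE 0.15) and Col4a2 at 0.22 (SE 0.06), and neither passed adjustment. Of the 9 endothelial markers 0 reached an unadjusted p under 0.05 in limma. Those above 0 were Slc2a1 at 0.13, Tie1 at 0.30, Pecam1 at 0.16 and Cldn5 at 0.18, the other 5 lay below 0, and the median was -0.0057.

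The 12 fibroblast markers had a median of 0.02 and overlapping sums, 10482 to 12572 in the controls and 11695 and 11709 in knockout. Their knockout median was 0.08 against NestinCre control alone and -0.15 against Flox control alone. For NestinCre minus Flox control it was -0.20. Against both controls, Lum and Aldh1a2 (-0.35, SE 0.07) were lower, Dcn was higher, and Pdgfra stood at 0.12. Choroid plexus markers were below 0 in all 7 cases, with a median of -0.34, led by Kl, Kcnj13, Clic6 and Otx2 at -0.20 to -0.45. Microglia markers were above 0 in all 5, with a median of 0.48 and Aif1, Ptprc and Tyrobp at 0.48 to 0.70, as were 3 of 4 markers of oligodendrocyte precursors, with Vcan at 0.72 (SE 0.11) and Gpr17 at 0.61 (SE 0.22). Of 5 astrocyte markers, Gfap (0.86, SE 0.07) and Aqp4 (0.25, SE 0.06) were higher and Slc1a2 (-0.23, SE 0.05) and Slc1a3 (-0.19, SE 0.06) lower. All 4 oligodendrocyte markers lay below 0 with a median of -0.11, and the neuronal median was -0.0080. The pituitary list had a median of -0.17, with Prl at -1.23 (SE 0.64). Its knockout median was 0.21 against NestinCre control alone and -0.61 against Flox control alone. For NestinCre minus Flox control it was -0.89. The part of any of these cell types in the collagen values was not tested.

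**Figure D5:**
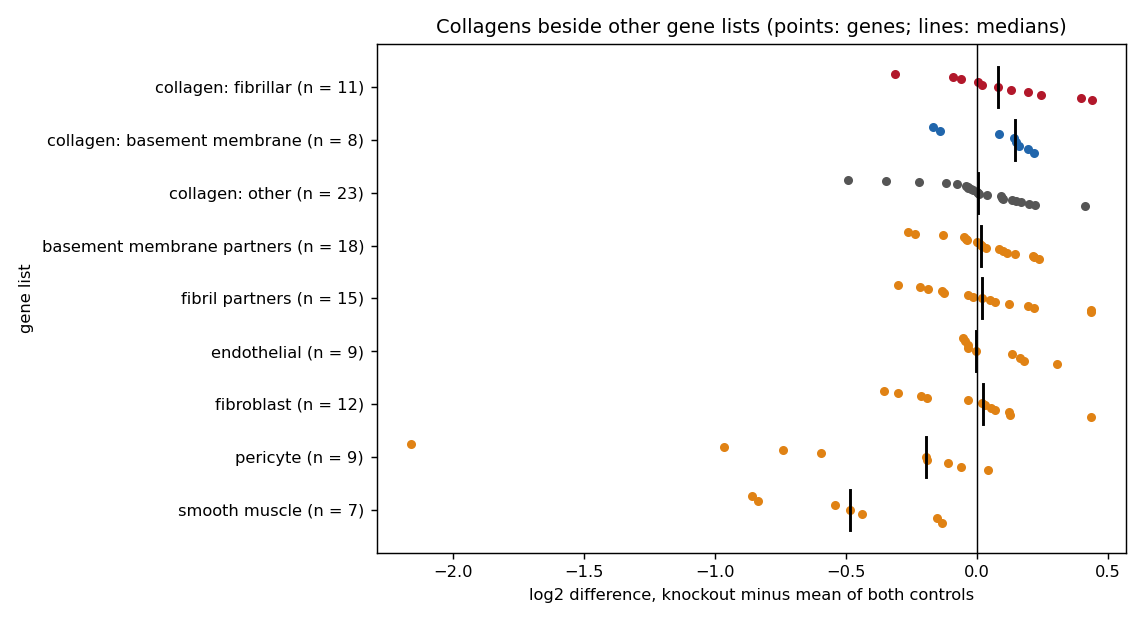
Log2 difference, knockout minus the mean of both controls, for the genes of the 3 collagen classes and of 6 other lists. Each point is a gene's brightest probe set, placed by value, and black lines are medians. The collagen medians lie between 0.0027 and 0.14, the smooth muscle median at -0.49, and the point furthest to the left is Rgs5 at -2.16.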

How the data were processed

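Total brain RNA (25 ng) was amplified and labelled with biotin, per the labels' protocols, and hybridised to 6 one-colour arrays. Each probe set has 1 linear intensity for each array in the deposited table. The submitters' processing notes list GCOS and RMA, without saying what either did. RMA normalizes arrays to a common distribution, so a shift shared by most probe sets would not be seen. Depth is not defined for arrays, and their number limits the precision.

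The table held 45101 probe sets, of which 64 control probe sets were left out. Of the remaining 45037, 34945 had 1 gene symbol, 932 several and 9160 none listed. Limma 3.58.1 in R 4.3.3 was fitted to log2 intensity over all 6 arrays with 1 mean per group and no covariate (3 residual degrees of freedom, 4.94 with the prior), and adjusted by Benjamini-Hochberg over all probe sets at 0.05. SE and 95% intervals are those of the limma difference. The step was tested on simulated data.

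The members and gene lists were chosen with earlier results of these data known. Values on each array are given, per class, for the 2 brightest genes, for up to 4 with the smallest p in knockout against both controls and for up to 2 between the controls, both at an unadjusted p under 0.05. Each list gives up to 4 genes by p. The values of other genes on each array were given after they were seen. Brightness is not compared between probe sets as expression. Alternatives were fits on the compared groups, a replicate block, repeated quantile normalization, median centring, a brightness filter, an intensity trend with and without robust fitting, gene means, log2 of the value plus 16, sex as a covariate and each array left out.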

Additional observations from a re-analysis of the deposited data

How the results depend on the processing

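No collagen gene passed adjustment under any alternative, and every gene at an unadjusted p under 0.05 kept its direction in every alternative run. Counts at that level moved by over 1.5 times in these cases. Knockout against Flox control went from 9 to 5 with the replicate block, with repeated quantile normalization and with median centring (3 higher, 2 lower), and to 4 with the brightness filter, which kept 23 genes. Knockout against NestinCre control went from 5 to 9 (7 higher, 2 lower) with sex as a covariate. NestinCre against Flox control went from 3 to 1 with the brightness filter or the intensity trend, and to 7 with gene means. Median centring gave 1 higher and 3 lower there, and repeated quantile normalization gave 6 higher and 2 lower for knockout against both controls. The cause was not tested. Leaving out 1 array gave 3 to 9 genes for knockout against both controls, 3 to 7 against NestinCre control, 5 to 8 against Flox control and 3 to 9 between the controls. Over all probe sets the share at that level in those fits was 8.14% to 13.5%, 3.93% to 7.83%, 10.2% to 18.8% and 7.48% to 12.1%. In the other alternatives it was 9.82% to 11.4%, 4.89% to 6.50%, 12.2% to 16.5% and 7.70% to 12.1%. Of 42 gene values in those fits against both controls, 23 stayed at an unadjusted p under 0.05. Differences between replicates 1 and 2 correlated at 0.19, -0.31 and -0.24 between groups. Replicate 1 was the female array in the NestinCre control but the male one in the knockout. These values therefore cannot tell whether arrays of the same number share more than a number. The replicate block gave 6 genes against both controls, 6 against NestinCre control and 3 between the controls. Over all probe sets, adjusted calls in knockout against both controls numbered 7, and 0 with the block or the sex covariate, 135 with the trend and 202 with robust fitting. The brightness filter gave 34, centring 22 and gene means 49. Brightness limits 19 of 42 genes, whose brightest probe set lay at or below the median of all probe sets.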
